A study of Mus musculus with 6 samples.

Results

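Type I interferon-stimulated genes were followed across the splenic cell classes of mice on 2 diets. The set was given as 47 symbols. Of these, 46 matched a row among the 32285 genes of the deposited count tables and Mx1 was not analysed here. The series has 6 single-cell libraries of splenocytes from wild-type C57BL/6 mice, in 2 groups of 3, one on the diet named ND and one on MCDHFD. The diets began at 6 weeks of age and lasted 7 weeks, and the titles of the second group name its diet MCD. The labels call the mice models of MASH and do not expand the diet names, nor do they say whether each library is 1 mouse, so the p-values measure the spread between these libraries, which may be technical.

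Cells were assigned to 8 classes by counts of unique molecules (UMIs) of genes outside the set, among barcodes with at least 1000 UMIs and at most 10% mitochondrial UMIs. B cells had at least 2 Cd79a UMIs, CD8 T cells had Cd3e and Cd8b1, CD4 T cells had Cd3e and Cd4, and NK cells had Ncr1 without Cd3e. Monocytes and macrophages had Csf1r, neutrophils had Csf3r and at least 5 S100a8 UMIs, dendritic cells (DC) had Flt3 and at least 3 H2-Aa UMIs, and erythroid cells had Klf1. The 3 questions were which members were lower in many classes, which in 1 class, and whether all cells of a class or only its cells with most member UMIs differed.

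Type I interferons bind a receptor made of Ifnar1 and Ifnar2, and the kinases Jak1 and Tyk2 then phosphorylate STAT proteins, among them Stat2, which enter the transcription factor complex ISGF3 with Irf9. ISGF3 binds an interferon-stimulated response element in promoters of genes that restrict viruses, sense foreign nucleic acid, modify proteins with the ubiquitin-like Isg15 or feed back on the pathway. Splenocytes of uninfected mice hold a low level of many of these transcripts, a state called tonic interferon signalling.

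The response element was looked for in the members' promoters because no class gate or choice of member used it. The motif searched was GAAA, any 2 bases and GAAA again, on either strand, in windows of 250 bases before to 50 after each start in RefSeq's table for GRCm38.p6. It was present for 16 of the 36 members with an entry, 44.4%, against 3.99% of the 27025 genes in the table. A longer form, the same letters followed after any 1 base by T, contains the first motif and was present for 12 members, 33.3%, against 0.958% of genes. A match is a description of the letters and not of a bound site. The windows of 60 bases below come from 5 members and show the arrangement of the motif, with matches on either strand in capitals. Isg15 is the ubiquitin-like modifier, Bst2 tethers budding virus particles, Ifit1 binds viral RNA, Oas1a makes the second messenger 2′-5′ oligoadenylate and Phf11b is a PHD finger gene. Their positions are chr4:156200851-156200910, chr8:71537563-71537622, chr19:34640778-34640837, chr5:120907526-120907585 and chr14:59341347-59341406 in the same order, on the minus strand except for Ifit1. Each is written 5′ to 3′ along its gene.
Isg15: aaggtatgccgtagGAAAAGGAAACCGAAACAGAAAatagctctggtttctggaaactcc
Bst2: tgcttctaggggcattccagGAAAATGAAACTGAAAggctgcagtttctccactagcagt
Ifit1: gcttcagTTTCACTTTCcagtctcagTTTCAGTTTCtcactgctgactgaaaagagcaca
Oas1a: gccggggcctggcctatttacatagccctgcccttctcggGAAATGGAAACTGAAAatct
Phf11b: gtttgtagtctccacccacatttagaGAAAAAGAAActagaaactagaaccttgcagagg
In Isg15 the motif occurs 3 times in overlapping copies, in Bst2 and Oas1a it overlaps itself once, Ifit1 has 2 separate copies and Phf11b has 1. Of the 16 members with the motif 9 were called lower in at least 1 class, and of the 20 without it 11 were. No promoter entry was used for Ifi27l2a, Ifi27, Rtp4, Zbp1, Usp18, Oas2, Parp9, Parp14, Dhx58 and Tor3a.

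The libraries held 21259837 to 62238012 UMIs and 3278 to 6625 kept cells. The other 4 libraries differed from ND replicate 2 and MCDHFD replicate 3, whose barcode lists were already filtered, whose headers name another Cell Ranger version and whose barcodes belong to another set. The fit therefore had list form, filtered or unfiltered, as a term beside diet, and values inside each form are given for some results. Of the 6548 kept barcodes of ND replicate 1, 2174 to 2429 lay in the list of each other unfiltered library, while of the 4962 of ND replicate 3 all lay in that of MCDHFD replicate 1 and 4951 in that of MCDHFD replicate 2. Pairs of libraries shared 0 to 18 kept barcodes. Marker genes that no gate used were compared with the labels. B cell markers summed to 2305 to 3521 counts per 1000000 UMIs (CPM) in B cells and at most 176 in other tested classes, and NK markers to 2754 to 4473 in NK cells and at most 102 elsewhere. Other lists were less clean. Monocyte and macrophage markers reached 7588 to 10255 CPM in ND neutrophils, and erythroid markers 970 to 7747 CPM in monocytes and macrophages, up to 8932 CPM in neutrophils and 2024 to 5896 CPM in the erythroid gate itself. The DC gate held markers of conventional DC (373 to 495 CPM) and of plasmacytoid DC (213 to 761 CPM). Erythroid cells numbered 14 to 42 per library, with fewer than 20 in 1, and were not tested.

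Interferon-stimulated genes were lower on MCDHFD in B cells, both T cell classes and monocytes and macrophages. The most members were called in B cells, while monocytes and macrophages had the most negative median and, without a model, the most members whose libraries did not overlap. The summed UMIs of a class in each library were tested with edgeR's quasi-likelihood test, with Benjamini-Hochberg adjustment over all genes of the class and a threshold of 0.05. In B cells 20 of the 46 members fell and none rose, where 3.71% of all 12978 genes tested fell. Their median log2 change was -0.58 against 0.04 over all genes. Markers of other cells moved in the same B cell sums: all 3 T cell markers rose (summed 16.5 to 32.4 CPM on ND, 29.2 to 47.8 on MCDHFD), all 3 red pulp macrophage markers rose (3.26 to 10.02 against 12.2 to 26.0 CPM), 1 of 4 NK markers rose and 1 of 4 B cell markers fell. Their part in the member changes was not tested. Of 42 members tested in CD4 T cells 12 fell (3.28% of all genes; median -0.50 against 0.00), and in CD8 T cells 9 of 43 fell (1.66% of all genes; median -0.42 against 0.01). Of 45 members tested in monocytes and macrophages 14 fell (0.483% of all genes), with a median of -0.98 against -0.02. No member rose in these 4 classes, where 3.32% of all genes rose in B cells, 1.42% in CD4 T cells, 0.887% in CD8 T cells and 0.288% in monocytes and macrophages.

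In NK cells 4 of 30 tested members fell, where 3.49% of all genes fell, and none rose, where 1.62% rose. The NK median was -0.22 against 0.00. Of the DC members none of 32 passed in either direction by edgeR (0.594% of all genes fell and 0.532% rose), with a median of -0.29 against -0.01. Neutrophils were the exception: 2 of 39 members fell, where 13.4% of all genes fell, and 4 rose, where 14.5% rose, and the median was -0.08 against -0.02. These calls rested on the term for list form. With diet alone edgeR called no member lower or higher in any class except the same count of 2 lower in neutrophils. Over all genes diet alone called 3.11% lower and 2.98% higher in neutrophils, 0.0206% lower and 0.0308% higher in monocytes and macrophages, 0.00974% higher in CD8 T cells and no gene otherwise. At an unadjusted p under 0.05 it gave 20 lower members in B cells (3.37% of all genes), 15 in CD8 T cells (1.87%), 15 in CD4 T cells (3.09%), 6 in NK cells (4.77%), 32 in monocytes and macrophages (4.32%), 3 in neutrophils (14.7%) and 1 in DC (2.49%). With the list form term DESeq2 called 24 lower in B cells (5.26% of all genes), 6 in CD8 T cells (0.867%), 5 in CD4 T cells (1.66%), 1 in NK cells (0.46%), 20 in monocytes and macrophages (1.2%), 2 in neutrophils (6.9%) and 0 in DC (0.282%).

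Levels were also compared without a model. Every MCDHFD library was below every ND library for 20 members in B cells (5.77% of all genes tested), 12 in CD8 T cells (3.27%), 16 in CD4 T cells (6.07%) and 30 in monocytes and macrophages (5.28%). In NK cells this held for 5 members (4.99%), in neutrophils for 2 (14%) and in DC for 2 (5.43%). For monocytes and macrophages, where 14 members were called lower, a batch term of 3 levels that set ND replicate 1 apart left 1 call. There the count was 0 without MCDHFD replicate 2 or 3, 1 without ND replicate 1, 2 without ND replicate 2 or MCDHFD replicate 1, and 11 without ND replicate 3. In B cells it was 9 without ND replicate 3 and 10 without MCDHFD replicate 2, and in CD8 T cells 4 without ND replicate 3 and 15 without ND replicate 1. In CD4 T cells it was 6 without MCDHFD replicate 2 and 7 without ND replicate 3, MCDHFD replicate 1 or MCDHFD replicate 3, and in NK cells 0, 1 and 2 without ND replicate 3, MCDHFD replicate 2 and MCDHFD replicate 1. The share of all genes was not counted for the batch of 3 levels or with a library left out.

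**Figure D1:**
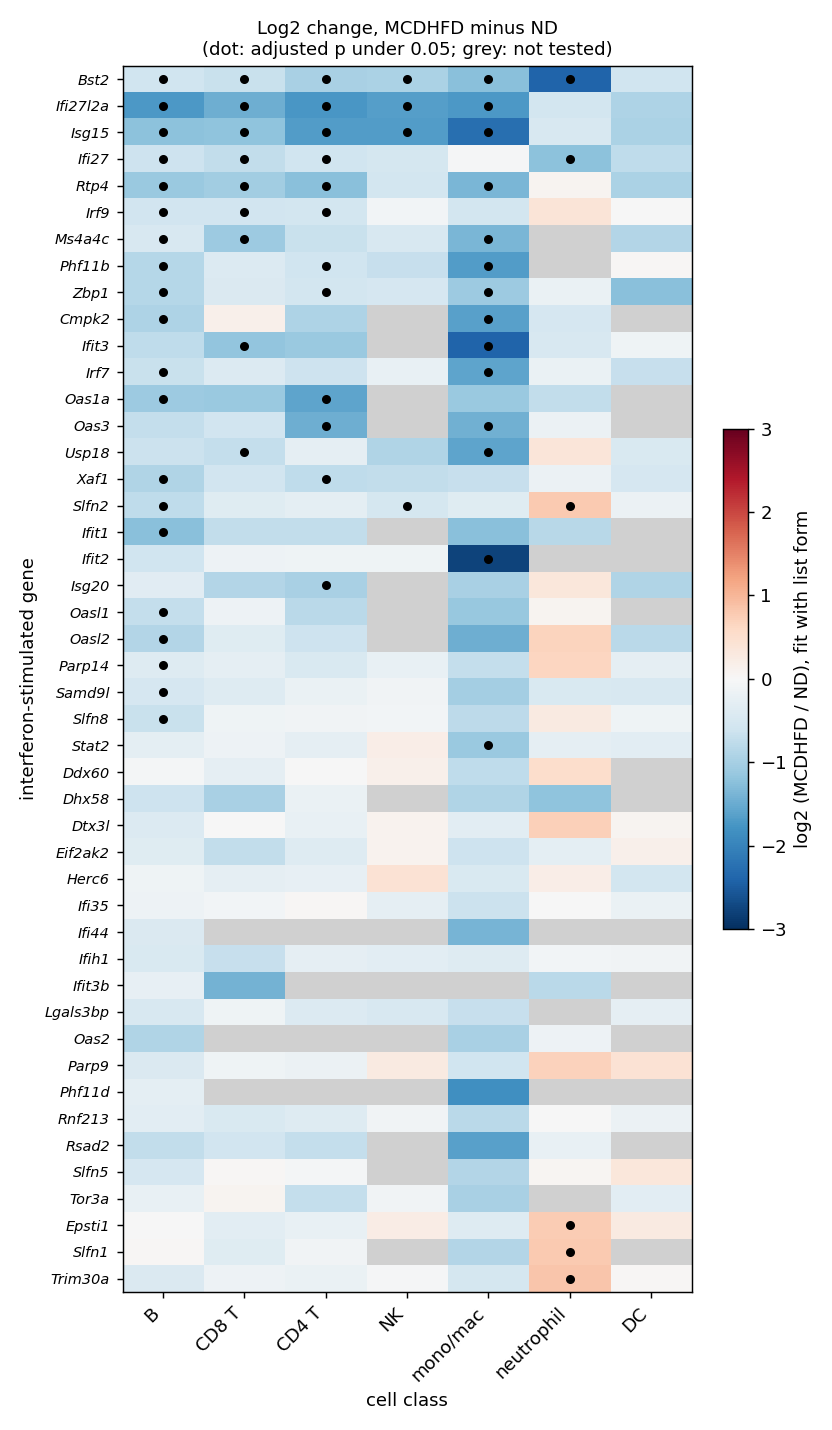
Log2 change (MCDHFD minus ND, fit with list form; colour scale from -3 to 3) of each of the 46 interferon-stimulated genes in 7 cell classes, with genes ordered by the number of classes in which they fell. Dots mark adjusted p under 0.05 and grey marks genes under the filter on low counts; Bst2 has dots in 6 classes, and the warm colours lie mostly in the neutrophil column.

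Across classes 26 of the 46 members fell in at least 1 class, where 11.8% of the 13882 genes tested in any class did. The 4 that rose did so in neutrophils, where 11.2% of genes rose in at least 1 class, and 17 members were called nowhere. Bst2 fell in 6 classes, Isg15 and Ifi27l2a in 5, and Rtp4 and Ifi27 in 4. Irf9, Zbp1, Phf11b and Ms4a4c fell in 3. A further 8 members fell in 2 classes and 9 in 1. The estimate was under 0 in every class where the gene was tested for 23 members, and the share of all genes was not counted. Those members include Ifi44 and Phf11d, tested in 2 classes, and Ifit3b and Oas2, tested in 3.

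Ifi27l2a, a small membrane protein of the Ifi27 family at chr12:103442167-103443680, was the member with the most UMIs in B cells, CD4 T cells and monocytes and macrophages. In CD4 T cells it stood at 1057, 1329 and 949 CPM in ND replicates 1 to 3 and at 359, 349 and 275 CPM in MCDHFD replicates 1 to 3. The groups did not overlap, and Ifi27l2a fell by 1.74 on the log2 scale (SE 0.136, edgeR adjusted p 2.8e-06). In monocytes and macrophages it measured 1872, 2248 and 1936 CPM on ND and 854, 707 and 409 CPM on MCDHFD (log2 change -1.72, SE 0.230, edgeR adjusted p 0.0272). In B cells the values were 606, 792 and 575 CPM against 230, 227 and 149 CPM (log2 change -1.72, SE 0.185). In CD8 T cells they were 350, 563 and 403 CPM against 175, 143 and 163 CPM (log2 change -1.47, SE 0.114). NK cells held far less, 34.6, 90.9 and 44.7 CPM on ND and 11.3, 17.4 and 20.4 CPM on MCDHFD, and the change was -1.65 (SE 0.295). In these 5 classes no library of one diet reached the other. The cells with an Ifi27l2a UMI in 1000 thinned UMIs went from 47.8%, 54.3% and 41.5% of CD4 T cells on ND to 24.8%, 21.5% and 20.4% on MCDHFD, and the mean in those positive cells from 2.28, 2.40 and 2.11 UMIs to 1.43, 1.57 and 1.39. Of the difference in summed member CPM, Ifi27l2a made up 46.6% in B cells, 59.1% in CD4 T cells, 32.9% in CD8 T cells and 42.8% in monocytes and macrophages.

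Free RNA of Ifi27l2a also differed between the diets. In the 4 libraries whose lists hold empty droplets, barcodes with fewer than 100 UMIs had 991 and 957 CPM of it in ND replicates 1 and 3 and 423 and 464 CPM in MCDHFD replicates 1 and 2. NK cells of the same 4 libraries had 11.3 to 44.7 CPM, and how much free RNA the droplets of cells carried was not measured. All members together made up 2783 and 2755 CPM of free RNA on ND and 2136 and 2166 CPM on MCDHFD. For 17 of the 46 members both MCDHFD values were below both ND values, and the share of all genes was not counted. Those 17 include Isg15 (37.0 and 50.9 against 21.3 and 32.7 CPM) and Bst2 (93.1 and 89.9 against 64.9 and 62.3 CPM). The part of free RNA in the changes of any class, NK cells included, was not tested.

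Isg15, at chr4:156199424-156200818, encodes the ubiquitin-like protein that is linked to other proteins after interferon. In monocytes and macrophages it stood at 120, 84.8 and 160 CPM on ND and at 31.9, 20.5 and 28.8 CPM on MCDHFD. The groups were well separated there, and Isg15 fell by 2.26 (SE 0.265, edgeR adjusted p 0.0210). In CD4 T cells the libraries had 57.9, 62.0 and 52.5 CPM against 15.9, 24.1 and 12.6 CPM (log2 change -1.67, SE 0.184). B cells had 21.4, 33.0 and 27.4 CPM against 11.7, 12.6 and 8.37 CPM (log2 change -1.23, SE 0.167). CD8 T cells overlapped, since ND replicate 1 at 17.3 CPM lay among the MCDHFD libraries at 13.9, 23.8 and 23.7 CPM, while ND replicates 2 and 3 were at 72.7 and 59.0 CPM (log2 change -1.21, SE 0.296). In NK cells Isg15 had 26.2, 50.9 and 57.1 CPM against 16.0, 10.3 and 27.2 CPM (log2 change -1.68, SE 0.344). Few cells gave a Isg15 UMI in 1000: 9.09%, 6.02% and 5.53% of monocytes and macrophages on ND and 2.14%, 1.66% and 2.43% on MCDHFD.

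Bst2, or tetherin, at chr8:71534255-71537456, fell in every tested class but DC. It was highest in DC on ND, at 755, 508 and 717 CPM, and there the MCDHFD libraries had 620, 476 and 248 CPM (log2 change -0.60, edgeR adjusted p 0.0972). In monocytes and macrophages the values were 191, 260 and 221 CPM against 100.3, 76.0 and 117 CPM (log2 change -1.25, SE 0.162). CD4 T cells had 83.2, 117 and 85.8 CPM against 39.9, 41.1 and 64.8 CPM (log2 change -0.98, SE 0.121). CD8 T cells had 79.9, 127 and 89.3 CPM against 59.2, 56.7 and 73.1 CPM (log2 change -0.68, SE 0.0972). B cells overlapped between list forms, at 51.7, 72.3 and 46.3 CPM against 29.6, 32.4 and 52.5 CPM, where the highest MCDHFD library and the highest ND library are the filtered ones (log2 change -0.61, SE 0.0961). NK cells also overlapped, at 34.6, 120 and 69.5 CPM against 17.9, 33.1 and 95.2 CPM (log2 change -0.94, SE 0.280). In neutrophils, the class with the lowest ND level, Bst2 went from 23.2, 17.2 and 15.5 CPM to 2.93, 4.43 and 6.29 CPM (log2 change -2.40, SE 0.462), and it passed there with diet alone as well (edgeR adjusted p 0.0257).

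Rtp4, a transporter protein of the Golgi that interferon induces strongly, fell in B cells (14.3, 27.6 and 14.3 CPM on ND; 7.66, 6.63 and 10.99 CPM on MCDHFD; log2 change -1.11, SE 0.111). In CD4 T cells it went from 26.7, 66.3 and 31.6 CPM to 18.9, 13.8 and 14.0 CPM (log2 change -1.26, SE 0.231). In CD8 T cells the values were 20.8, 53.3 and 35.1 CPM against 13.6, 17.3 and 20.9 CPM, with 1 ND library just under 1 MCDHFD library (log2 change -1.04, SE 0.178). Monocytes and macrophages had 67.4, 99.8 and 89.5 CPM against 43.2, 24.9 and 32.4 CPM (log2 change -1.38, SE 0.233). In neutrophils Rtp4 split by list form: 68.6 and 52.2 CPM on ND against 113 and 112 CPM on MCDHFD in unfiltered libraries, but 147 against 31.5 CPM in filtered ones.

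Ifi27, which lies next to Ifi27l2a on chromosome 12 and encodes a mitochondrial membrane protein of the same family, took another pattern from its neighbour. It fell in B cells (61.1, 75.01 and 51.9 CPM against 39.4, 36.7 and 46.2 CPM; log2 change -0.62, SE 0.0943) and in CD8 T cells (108, 130 and 97.9 CPM against 63.1, 65.5 and 79.2 CPM; log2 change -0.75, SE 0.0994). CD4 T cells had 104, 125 and 73.3 CPM against 60.6, 65.5 and 70.1 CPM (log2 change -0.59, SE 0.138). Ifi27 fell in neutrophils too, from 116, 115 and 92.8 CPM to 55.7, 36.3 and 59.8 CPM (log2 change -1.24, SE 0.239), where Ifi27l2a overlapped between the diets (388, 451 and 261 CPM against 290, 445 and 113 CPM). In monocytes and macrophages the 2 genes parted: Ifi27 had 49.4, 34.4 and 30.5 CPM against 33.5, 29.8 and 64.8 CPM (log2 change -0.04, SE 0.295), while Ifi27l2a fell.

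**Figure D2:**
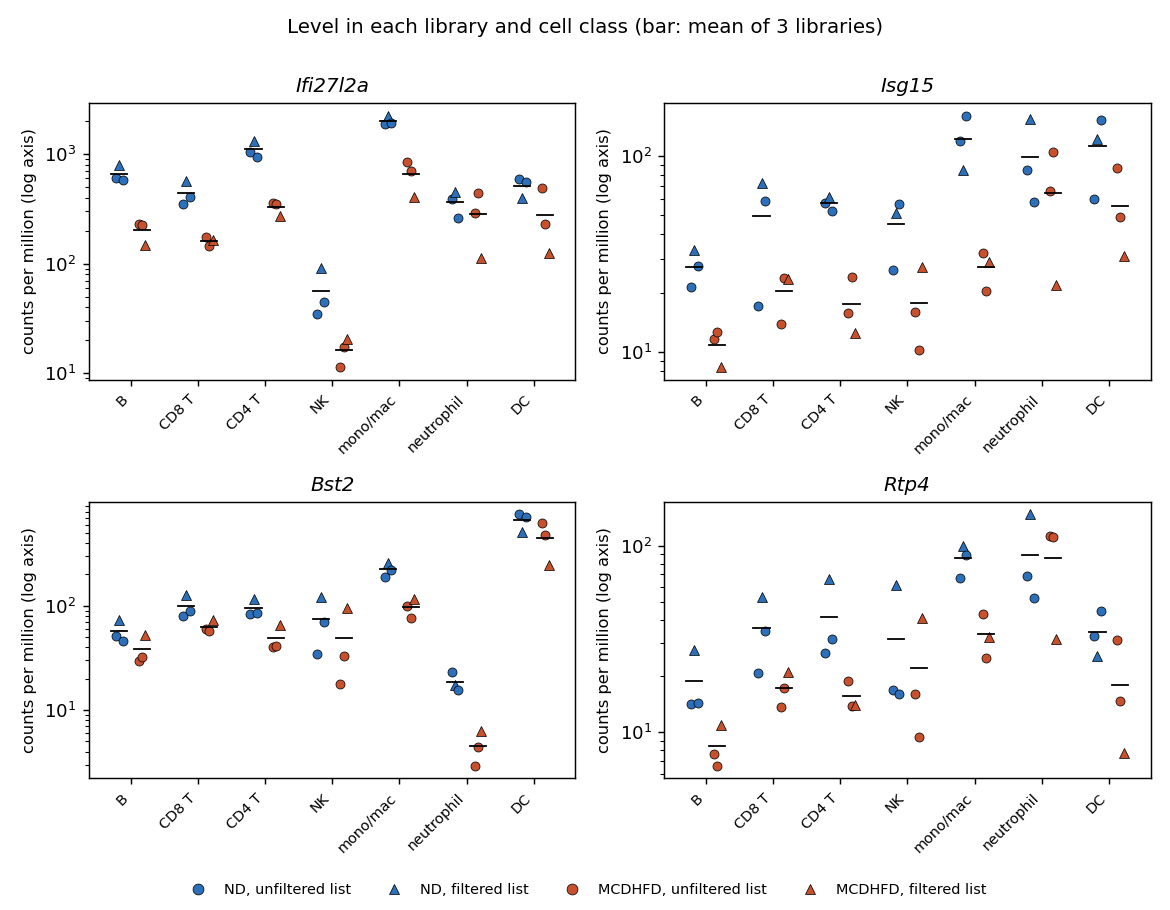
CPM (log axis) of Ifi27l2a, Isg15, Bst2 and Rtp4 in each of the 6 libraries and 7 cell classes; colours give the diet, triangles the libraries with filtered barcode lists, and bars the mean of 3 libraries. Ifi27l2a in CD4 T cells sits between 949 and 1329 CPM on ND and between 275 and 359 CPM on MCDHFD, while in neutrophils the diets overlap.

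Among the members that form or extend ISGF3, Irf9 fell in 3 lymphocyte classes, Stat2 in monocytes and macrophages, and Irf7 in those and in B cells. Irf9 measured 49.7, 57.3 and 52.4 CPM on ND and 34.8, 37.3 and 34.9 CPM on MCDHFD in B cells. Its log2 changes were -0.57 in B cells, -0.56 in CD4 T cells and -0.56 in CD8 T cells. Monocytes and macrophages also had -0.56, which did not pass. Stat2 fell in monocytes and macrophages alone, from 73.4, 70.9 and 92.1 CPM to 47.4, 39.0 and 27.0 CPM (log2 change -1.11, SE 0.172, edgeR adjusted p 0.0346), and its change there differed from the mean of the other classes by -0.85 (adjusted p 0.00127). Irf7, the factor that amplifies interferon production, fell there from 102, 170 and 141 CPM to 51.6, 38.1 and 50.4 CPM (log2 change -1.58, SE 0.190). It fell in B cells as well, where each form had its own level: 7.90 and 9.77 CPM on ND against 6.65 and 5.06 CPM on MCDHFD in unfiltered libraries, and 22.4 against 12.7 CPM in filtered ones (log2 change -0.67, SE 0.144).

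The Ifit genes, which lie together on chromosome 19 and encode RNA-binding proteins that block translation of viral messages, differed from each other. Ifit2 fell only in monocytes and macrophages among the 5 classes where it was tested. There it stood at 34.9, 16.1 and 56.9 CPM on ND and 9.69, 4.42 and 2.70 CPM on MCDHFD. Its log2 change of -2.77 (SE 0.358, edgeR adjusted p 0.0265) was the largest of any member in that class, and it differed from the mean of the other 4 classes where it was tested by -2.48 (adjusted p 1.1e-05). Its levels in CD4 T cells were alike on both diets, at 31.6, 37.5 and 37.8 CPM against 34.8, 31.4 and 30.4 CPM. Ifit3 fell in monocytes and macrophages (56.9, 24.7 and 53.3 CPM against 13.6, 5.58 and 9.001 CPM) and in CD8 T cells (10.6, 30.7 and 20.9 CPM against 7.85, 9.69 and 7.81 CPM). Ifit1 was called in B cells, with a log2 change of -1.25, but it had -1.25 in monocytes and macrophages too, and the difference between B cells and the other classes did not pass (adjusted p 0.742). Ifit3b, the near copy of Ifit3, was tested in 3 classes and called in none. Of the 50-base stretches in the last 500 bases of Ifit3, 14.9% also occur in Ifit3b, so reads could be split between them.

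The oligoadenylate synthetases, which make a second messenger that turns on RNase L, fell in lymphocytes and in monocytes and macrophages one by one. Oas1a fell in B cells (6.03, 22.0 and 6.71 CPM against 4.14, 3.45 and 5.93 CPM) and CD4 T cells (12.7, 26.4 and 10.7 CPM against 4.20, 4.40 and 7.25 CPM). Oas3 fell in CD4 T cells (14.5, 11.1 and 8.001 CPM against 4.80, 5.28 and 1.45 CPM) and in monocytes and macrophages (40.4, 48.3 and 50.7 CPM against 22.8, 16.3 and 12.6 CPM). The 2 related Oasl1 and Oasl2 fell in B cells, by 0.71 and 0.89, and their difference there from the other classes where they were tested did not pass (adjusted p 0.880 and 0.564). Oas2 was tested in 3 classes and passed in none. Of the last 500 bases of Oas1a, 56.1% of the 50-base stretches also occur in Oas1g, so its counts are uncertain.

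Members around Isg15 conjugation followed more than 1 pattern. Usp18, the protease that removes Isg15 and blocks the interferon receptor, fell in CD8 T cells (log2 change -0.71) and in monocytes and macrophages (log2 change -1.58, from 28.5, 19.3 and 37.8 CPM to 12.8, 9.30 and 8.10 CPM). Herc6, an E3 ligase for Isg15, passed in no class. The partners Parp9 and Dtx3l, which form an ADP-ribosylation and ubiquitin ligase complex, passed in no class either. Parp14 fell in B cells by 0.39. Among sensors, the Z-DNA receptor Zbp1 fell in B cells (log2 change -0.86), CD4 T cells (-0.54) and monocytes and macrophages (-1.09), while the RNA sensors Ifih1, Dhx58, Ddx60 and the kinase Eif2ak2 passed nowhere.

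Phf11b and Ms4a4c, a membrane protein of the Ms4a family, were the other members among those with the smallest p-values. Phf11b fell in B cells (38.2, 54.1 and 45.4 CPM against 25.04, 24.4 and 25.8 CPM; log2 change -0.86, SE 0.0917) and CD4 T cells (51.5, 48.5 and 50.2 CPM against 31.5, 31.1 and 37.2 CPM; log2 change -0.60, SE 0.142). Its fall in monocytes and macrophages, from 61.4, 60.1 and 65.2 CPM to 27.8, 15.8 and 16.2 CPM (log2 change -1.68, SE 0.228), differed from the mean of the other 5 classes that had enough Phf11b UMIs to be tested by -1.10 (adjusted p 0.00127). Ms4a4c fell in CD8 T cells (133, 100.7 and 125 CPM against 70.6, 58.1 and 48.5 CPM; log2 change -1.08, SE 0.106), in B cells (188, 168 and 184 CPM against 147, 129 and 114 CPM; log2 change -0.48, SE 0.0899) and in monocytes and macrophages (329, 247 and 361 CPM against 153, 181 and 62.1 CPM; log2 change -1.37, SE 0.200). In all 6 of these comparisons the libraries of the 2 diets were apart. Of the 50-base stretches at the 3′ end of Phf11b, 42.6% also occur in Phf11c, Phf11d or Phf11a, and of those of Ms4a4c 11.1% occur in Ms4a4b or Ms4a4d.

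The other members called in 2 classes were Xaf1, a proapoptotic protein (B cells -0.91, CD4 T cells -0.75), and Cmpk2, a mitochondrial nucleotide kinase (B cells -0.92, monocytes and macrophages -1.63). Isg20, an exonuclease, fell in CD4 T cells by 0.98, and Samd9l, a translational repressor, fell in B cells by 0.50. Neither difference from the other classes where the gene was tested passed (adjusted p 0.708 for Isg20 and 0.900 for Samd9l). The members called nowhere include Rsad2, the radical enzyme viperin, whose log2 changes ran from -1.64 in monocytes and macrophages to -0.21 in neutrophils. Rnf213, Slfn5, Ifi35, Ifi44, Lgals3bp, Tor3a and Phf11d complete that group with the genes named above.

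Whether a member's change differed between classes was tested in 1 edgeR fit of all 7 classes with terms for library, class, class by list form and class by diet. The change differed between classes for 25 of 46 members (adjusted p under 0.05), where 15.5% of 11567 genes did. Isg15 did not pass (adjusted p 0.0852), nor did Zbp1 (0.0840) or Oas1a (0.919). With each gene held to the classes where it was tested 25 members passed as well (16.9% of genes). Relative to the mean of all other classes, 7 members changed more negatively in monocytes and macrophages (0.769% of all genes): Ifit2, Phf11b, Stat2, Irf7, Usp18, Ms4a4c and Ifit3. Some of these means include a class with too few UMIs of the gene. Over the classes where each gene was tested there were 11 (1.52% of genes), without Ms4a4c (adjusted p 0.0993) and with Slfn1, Slfn8, Ddx60, Cmpk2 and Tor3a. In B cells it was 3 by either reckoning (0.657% of all genes, or 1.13% where tested), namely Slfn8, Dtx3l and Slfn2. Without the list form terms 12 members passed the test over classes, with the batch of 3 levels 6, and with 1 library left out 7 to 22. The share of all genes in these settings was not counted.

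Over the classes where each gene was tested, 17 of 39 members changed more positively in neutrophils than in the others (20% of genes did) and 2, Ifi27 and Bst2, more negatively (14.7% of genes). Over all 7 classes the counts were 16 (10.1% of genes) and 2 (7.94%), and the 16 included Phf11b and Ms4a4c, which had too few UMIs in neutrophils to be tested. Of the Schlafen genes, which lie together on chromosome 11 and include regulators of lymphocyte quiescence, Slfn1 and Slfn2 were among the 17. Slfn2 fell in B cells from 197, 180 and 200 CPM to 124, 121 and 100.3 CPM (log2 change -0.75, SE 0.0826) and rose in neutrophils from 323, 394 and 404 CPM to 648, 786 and 635 CPM (log2 change 0.79, SE 0.232, edgeR adjusted p 0.0214). Neither pair of groups overlapped. It fell in NK cells too, from 185, 200.1 and 181 CPM to 158, 119 and 156 CPM (log2 change -0.53, SE 0.158). Slfn1 rose in neutrophils from 177, 297 and 188 CPM to 302, 493 and 384 CPM (log2 change 0.79, SE 0.247, edgeR adjusted p 0.0286), and its estimate in B cells was 0.03. Slfn8 fell in B cells, from 53.9, 65.4 and 64.7 CPM to 46.0, 38.5 and 31.4 CPM (log2 change -0.67, SE 0.126), and in neutrophils its change of 0.27 did not pass. Of the 50-base stretches at the 3′ end of Slfn8, 25.5% also occur in Slfn9 or Slfn10-ps.

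The 2 other members that rose in neutrophils did so in the unfiltered libraries. Trim30a, a tripartite motif protein that restrains inflammatory signalling, stood at 183 and 173 CPM on ND against 278 and 563 CPM on MCDHFD there, and at 155 against 176 CPM in the filtered pair (log2 change 0.84, SE 0.285, edgeR adjusted p 0.0401). Epsti1 had 66.6 and 81.2 CPM against 130 and 184 CPM, but 39.8 against 31.5 CPM in the filtered pair (log2 change 0.75, SE 0.266, edgeR adjusted p 0.0467). With ND replicate 1 or ND replicate 3 left out, or with the batch of 3 levels, none of the 4 rises passed, and without MCDHFD replicate 3 or without ND replicate 2 the number was 10. The share of all genes in these settings was not counted. The neutrophil class itself differed between the diets: the summed neutrophil markers were 130020 to 154150 CPM on ND and 96717 to 109800 CPM on MCDHFD, and the summed monocyte and macrophage markers 7588 to 10255 CPM against 2094 to 3870 CPM. Of the 4 neutrophil markers 1 fell and 1 rose. Their part in the member changes was not tested.

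The spread of the members over cells was examined by drawing 1000 UMIs from each cell and summing the 46 members. With 3 libraries against 3 the exact two-sided permutation test cannot go below p = 0.1. Monocytes and macrophages had the highest mean on ND, with 6.24, 6.11 and 6.07 member UMIs per cell in replicates 1 to 3, against 3.46, 2.97 and 2.35 on MCDHFD. B cells had 2.51, 2.89 and 2.66 against 1.78, 1.73 and 1.49, CD4 T cells 3.46, 3.75 and 3.37 against 2.31, 2.28 and 1.91, and CD8 T cells 2.60, 3.24 and 3.15 against 2.23, 2.42 and 1.82. In these 4 classes and in DC (4.23, 4.85 and 5.38 against 3.81, 3.29 and 2.00) every MCDHFD library was lower (exact permutation p = 0.1 in each). Without thinning the DC libraries overlapped, at 40.8, 41.7 and 49.8 member UMIs per 10000 on ND and 42.1, 34.0 and 22.7 on MCDHFD. No direction that holds in both summaries is therefore read for DC. The log2 ratios of the thinned means were -1.07, -0.69, -0.70, -0.47 and -0.67 in that order of classes. In the unfiltered libraries they were -0.94, -0.56, -0.57, -0.31 and -0.44. The filtered pair, 1 library per diet, had the larger drop in each, with -1.38, -0.96, -0.97, -0.83 and -1.28.

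The whole distribution lay lower in B cells, CD4 T cells and monocytes and macrophages. In B cells the lower 50% of the cells had a mean of 0.934 ± 0.0298 member UMIs on ND (SD, n = 3 libraries) and 0.499 ± 0.0436 on MCDHFD, a log2 ratio of -0.90. The next 40% had a ratio of -0.63 and the top 10% one of -0.68, from 9.02 ± 0.983 to 5.64 ± 0.433. The cells with no member UMI went from 15.5%, 14.4% and 14.9% to 23.5%, 24.1% and 27.5%. In CD4 T cells the 3 parts had ratios of -0.70, -0.68 and -0.74, and in monocytes and macrophages -1.18, -0.99 and -1.12. In each of these 9 comparisons the libraries of the diets were apart.

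The upper tail took a share of the difference close to its share of the level in those classes. The top 10% of cells carried 33.5% of all member UMIs of B cells on ND and made up 33.0% of the difference between the diets. For CD4 T cells these shares were 32.8% and 34.1%, and for monocytes and macrophages 29.6% and 30.6%. Cells at or above the 95th percentile of the ND cells, which is 16 member UMIs in monocytes and macrophages, were 6.22%, 4.51% and 5.03% of that class on ND and 0.214%, 0.415% and 0% on MCDHFD. In B cells, with 8 UMIs as the level, they were 4.01%, 6.33% and 4.89% against 1.56%, 1.35% and 0.780%. The 0% in MCDHFD replicate 3 rests on 247 cells.

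CD8 T cells were lower in their upper part, and their lower 50% overlapped between the diets. That lower 50% had means of 1.06, 1.31 and 1.02 on ND and 0.883, 1.05 and 0.652 on MCDHFD, which overlapped (log2 ratio -0.40, exact permutation p = 0.2). In the unfiltered libraries alone that ratio was -0.11. The top 10% had means of 7.62, 10.04 and 11.4 against 6.58, 6.92 and 5.15, with no overlap (log2 ratio -0.64), and took 41.4% of the difference against 32.3% of the ND level. No test compared the 2 parts. Without the cells with a Ccl5 UMI, a transcript of memory and effector T cells, 15 members were called lower in CD8 T cells instead of 9. The share of all genes without those cells was not counted.

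Neutrophils on MCDHFD were lower in their upper tail, while their lower 50% overlapped between the diets. The top 10% had means of 20.9, 30.0 and 22.3 member UMIs on ND and 13.5, 15.5 and 7.00 on MCDHFD, with no overlap (log2 ratio -1.03, exact permutation p = 0.1). The lower 50% had 1.03, 1.15 and 1.16 against 1.69, 2.17 and 0.750, higher in both unfiltered MCDHFD libraries and lower in the filtered one (exact permutation p = 0.4). The cells with at least 22 member UMIs were 2.91%, 7.53% and 3.06% on ND and 0.463%, 1.69% and 0% on MCDHFD. Neutrophils numbered 309, 93 and 98 on ND and 216, 236 and 65 on MCDHFD, so the 0% rests on 65 cells. For the top 10% the log2 ratio was -0.58 in the unfiltered libraries and -2.10 in the filtered pair. The mean per cell was lower on MCDHFD on average, while members summed over all UMIs of the class were 2529, 3092 and 2497 CPM on ND and 3333, 4511 and 2073 CPM on MCDHFD. These 2 summaries weight deep and shallow cells differently, so no direction is read for neutrophils as a whole.

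The summed members overlapped between the diets in NK cells, with means of 2.16, 2.52 and 2.40 on ND and 2.40, 2.35 and 2.00 on MCDHFD (log2 ratio -0.07, exact permutation p = 0.5). Epsti1 alone gave 33.5% of the member UMIs of NK cells and did not pass there (log2 change 0.23), while Isg15, Ifi27l2a, Bst2 and Slfn2 fell. NK libraries were small, with 33 to 226 cells, and DC libraries had 28 to 77. The erythroid cells, which were not tested, had summed members of 1080, 1284 and 1111 CPM on ND and 661, 711 and 637 CPM on MCDHFD.

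**Figure D3:**
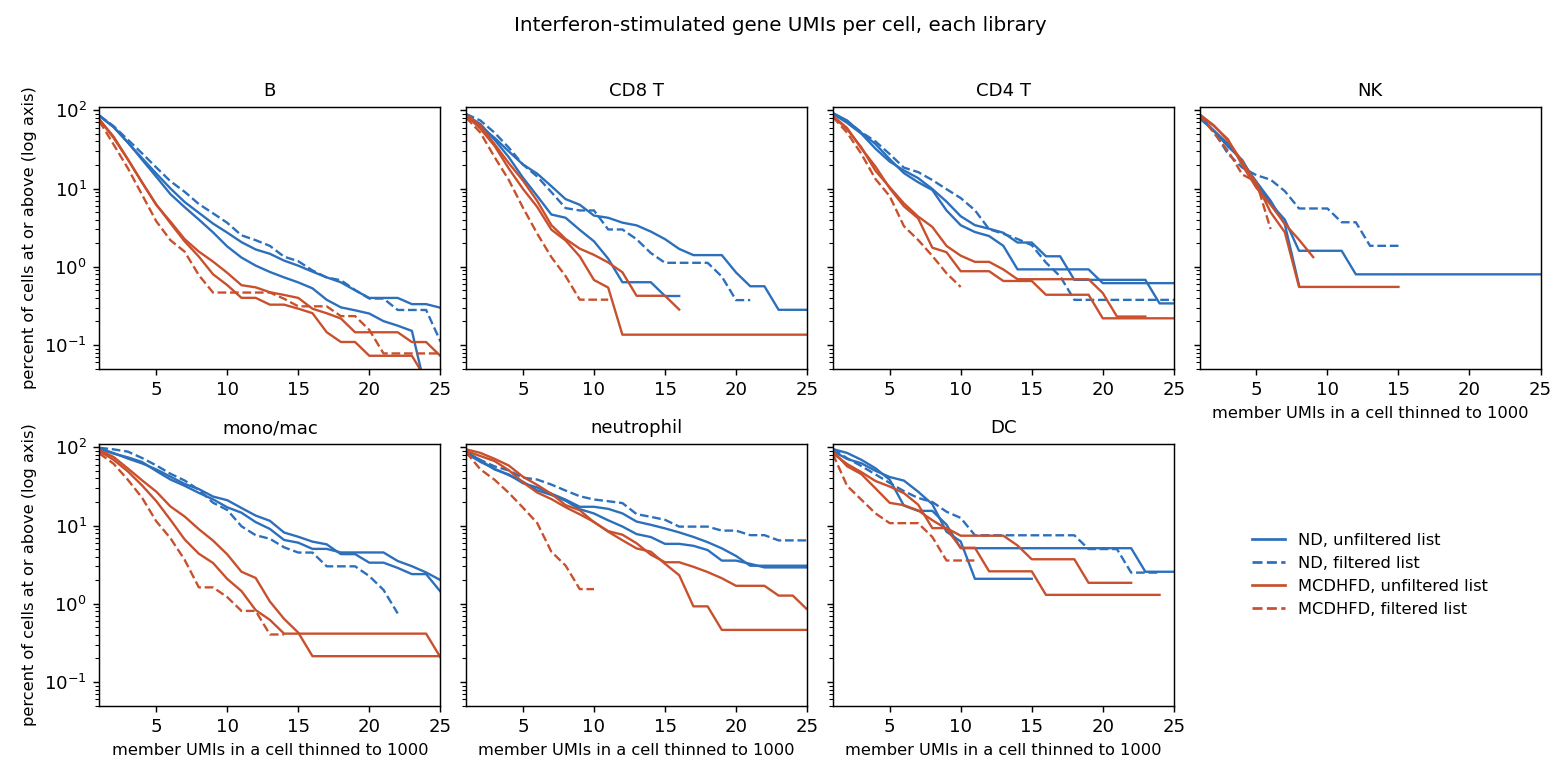
Percent of cells (log axis) with at least the number of member UMIs on the horizontal axis, after drawing 1000 UMIs per cell, for each library; blue is ND, orange MCDHFD and dashed lines are the filtered barcode lists. In B cells, CD4 T cells and monocytes and macrophages the orange lines run below the blue ones over most of the range, and in neutrophils the lines cross.

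**Figure D4:**
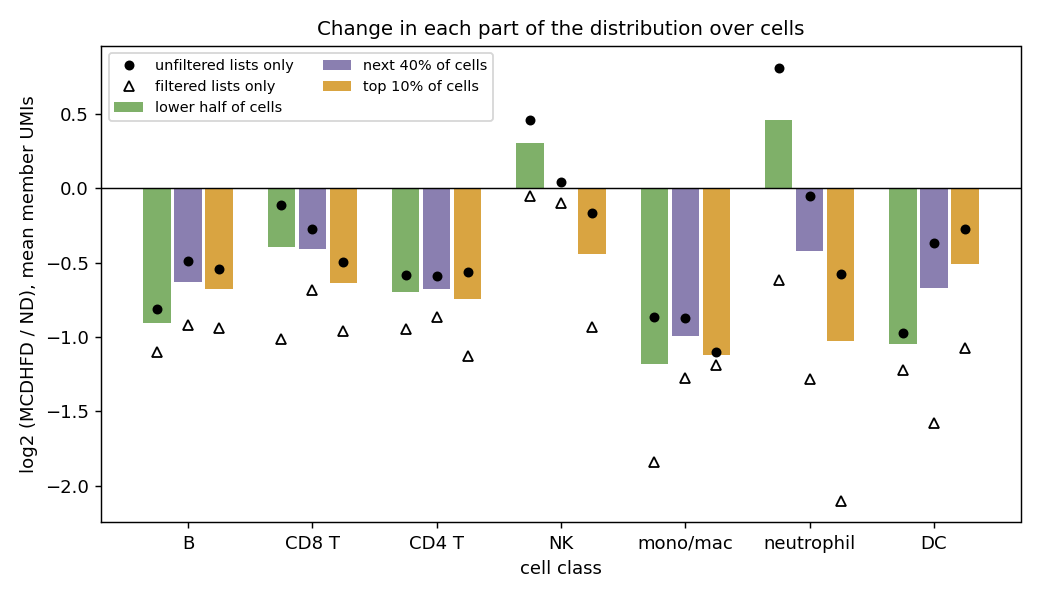
Log2 ratio (MCDHFD over ND) of the mean member UMIs in the lower 50%, the next 40% and the top 10% of cells of each class; bars use all 6 libraries, circles the 4 unfiltered and triangles the 2 filtered ones. Bars are alike in CD4 T cells (-0.70, -0.68 and -0.74), while neutrophils run from 0.46 in the lower 50% to -1.03 in the top 10%.

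Ifi27l2a did not carry the shift alone. Without it the log2 ratio of the mean was -0.46 in B cells, -0.40 in CD4 T cells, -0.36 in CD8 T cells and -0.87 in monocytes and macrophages, and the libraries of the diets were apart in B cells, CD4 T cells and monocytes and macrophages but overlapped in CD8 T cells. The number of different members seen per cell in 1000 UMIs went from 2.16 ± 0.115 to 1.49 ± 0.104 in B cells and from 4.22 ± 0.145 to 2.41 ± 0.323 in monocytes and macrophages (SD, n = 3 libraries).

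On ND the highest level was in monocytes and macrophages for 23 members, in neutrophils for 12, in DC for 7, in NK cells for 2 and in CD8 T and B cells for 1 each. Ifi27l2a was clear of its next class (2019 ± 201 CPM in monocytes and macrophages, 1112 ± 196 CPM in CD4 T cells), as was Bst2 (660 ± 133 CPM in DC, 224 ± 34.7 CPM in monocytes and macrophages; SD, n = 3). Isg15 was not, at 122 ± 37.9 CPM in monocytes and macrophages and 112 ± 47.3 CPM in DC. Within the monocyte and macrophage class its own summed markers also differed, at 10639 to 12849 CPM on ND and 7288 to 10078 CPM on MCDHFD, although no single marker passed. Red pulp macrophage markers overlapped there (1188 to 2007 against 1083 to 3442 CPM). The part of these differences in the member changes was not tested.

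The pathway above the members was read from a list of 44 further genes. Of 8 ligands, none had enough UMIs to be tested in any class. Ifnar1 and Ifnar2 passed in no class except neutrophils, where Ifnar1 rose from 26.1, 18.6 and 22.2 CPM to 49.8, 66.4 and 40.9 CPM (log2 change 1.10, SE 0.257). In B cells Ifnar1 measured 37.4, 49.8 and 44.9 CPM against 44.1, 40.4 and 50.6 CPM. Of 34 pathway genes tested in B cells 2 rose, the inhibitors Trim24 and Socs3. Of 31 in CD8 T cells 2 rose, Socs3 and Ifngr2, a chain of the interferon gamma receptor. Of 32 in CD4 T cells 1 rose, Socs3, and the transcription factor Irf8 fell. Of 32 in monocytes and macrophages none rose. In NK cells and DC none passed. In neutrophils 9 of 23 rose, where 14.5% of all genes rose: Ifnar1, Jak1, Irf1, Irf2, Myd88, Samhd1, Pias1, Socs3 and Ifngr2. With diet alone in the fit 8 of these 9 did not pass (adjusted p 0.0508 to 0.240), nor did any of the rises in B cells or T cells. No sensor or adaptor passed in any other class.

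Socs3, an inhibitor of cytokine receptor signalling that Stat3 induces, rose in 4 classes. In CD8 T cells it went from 16.2, 29.1 and 15.6 CPM to 35.7, 43.6 and 92.3 CPM (log2 change 1.38, SE 0.143) and in CD4 T cells from 22.6, 38.7 and 14.2 CPM to 39.0, 55.8 and 115 CPM (log2 change 1.46, SE 0.183). B cells had 3.02, 5.25 and 2.10 CPM against 5.26, 9.03 and 19.7 CPM (log2 change 1.60, SE 0.251), and neutrophils 86.5, 62.4 and 69.6 CPM against 138, 230 and 208 CPM (log2 change 1.25, SE 0.245). MCDHFD replicate 3 was the highest library in B cells and both T cell classes. The groups did not overlap in these 4 classes, although in B cells the highest ND and the lowest MCDHFD library were nearly equal. Of these 4 calls of Socs3, the one in neutrophils passed with diet alone (edgeR adjusted p 0.0439).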

How the data were processed

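The deposited values are counts of UMIs per gene and barcode, whole numbers per the file headers and a check of every value. The submitters' processing notes name mm10, Cell Ranger 9.1.0 and Seurat 4.3.0. Instead of that Cell Ranger version, the file headers have 9.0.1 for the unfiltered lists (4 libraries) and 7.2.0 for the filtered ones (2). Reads were not realigned.

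The members, gene lists and tests were chosen with earlier results of these data known. Cells passing more than 1 class gate were left out (272 to 629 per library). Scrublet's predicted doublets (0 to 245 per library) were kept, and removed as an alternative. Classes that had 20 or more cells in each library were summed by library and tested in edgeR 4.0.16 (R 4.3.3): TMM normalization, its default filter on low counts, quasi-likelihood test, Benjamini-Hochberg adjustment. Terms were diet and list form. Changes inside 1 list form come from log2 CPM with 0.5 counts added. CPM are raw counts over the summed UMIs of the class. Gene positions are GENCODE vM21 (GRCm38). The tests were checked on simulated data.

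The genes given with all libraries are members lower in at least 4 classes, the 3 smallest p-values per class among those called, members called in 1 class whose contrast passed, members called higher, and pathway genes called in at least 3 classes. The values of 1 pathway gene are not reported here. Thinning drew 1000 UMIs per cell in Python 3.11.15; means over libraries were compared by the exact permutation test. Alternatives were diet alone, a replicate block, DESeq2 1.42.0, upper-quartile normalization, no filter, other cell sets, thinning to 2000 UMIs or none, and each library left out. A batch of 3 levels, the unfiltered libraries alone, ND replicate 3 against MCDHFD replicates 1 and 2, and contrasts between classes over only those where a gene was tested were added after seeing the data. Median depth per cell was 4462 to 6186 UMIs.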

Additional observations from a re-analysis of the deposited data

Results flagged for a closer look

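The change with diet differed between the 7 classes for 25 members (edgeR F test of all class by diet terms, Benjamini-Hochberg adjusted p over all genes tested). The smallest adjusted p-values belonged to Slfn2 (6.3e-05), Oasl2 (7.0e-05), Ifit2 (7.3e-05), Slfn1 (1.7e-04) and Phf11b (4.4e-04). Trim30a (0.00194), Epsti1 (0.00364), Slfn8 (0.00481), Stat2 (0.00689) and Ms4a4c (0.00774) followed. Values between 0.01 and 0.03 were those of Dtx3l (0.0104), Usp18 (0.0108), Ddx60 (0.0112), Rtp4 (0.0214), Parp14 (0.0220), Irf7 (0.0230) and Parp9 (0.0262). The rest were Tor3a (0.0302), Ifi27l2a (0.0302), Irf9 (0.0332), Ifi27 (0.0353), Cmpk2 (0.0373), Oas3 (0.0442), Bst2 (0.0465) and Ifit3 (0.0482).

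Oasl2 split within neutrophils by list form. The unfiltered libraries had 110 and 148 CPM on ND against 258 and 367 CPM on MCDHFD, and the filtered pair 165 against 100.7 CPM, and its change there differed from the mean of the other classes by 1.66 (adjusted p 1.6e-04).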

How the results depend on the processing

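With diet alone or with a replicate block in place of list form, no member passed in B cells, CD8 T cells, CD4 T cells, NK cells or monocytes and macrophages (0 each). In neutrophils the block gave 0 lower and 0 higher members and diet alone 0 higher. The correlation of deviations from the diet mean between same-numbered libraries was 0.237 to 0.570 for replicate 1 and negative for replicates 2 and 3 in every class. Replicate 1 was unfiltered on both diets, while replicates 2 and 3 each set a filtered library against an unfiltered one. List form was not removed from these deviations, so they cannot tell whether the replicate numbers pair the libraries. Without the filter on low counts the lower members numbered 35 in B cells, 1 in CD8 T cells, 33 in monocytes and macrophages and 5 in DC. With cells of several gates kept they were 5 in CD8 T cells, 1 in neutrophils and 3 in DC, and the higher neutrophil members 0. DESeq2 gave 5 in CD4 T cells and 1 in NK cells, and 2 higher in neutrophils. Upper-quartile normalization gave 2 in NK cells and 2 higher in neutrophils. Without cells with a Ccl5 UMI 15 CD8 members were lower. The batch of 3 levels gave 18 in CD8 T cells, 2 in NK cells and 1 each in monocytes and macrophages, neutrophils and DC, with 0 higher in neutrophils. The 4 unfiltered libraries gave 2 in monocytes and macrophages and 10 higher in neutrophils. The change by class passed for 12 members without list form terms and 6 with the batch of 3 levels. The cause of these shifts was not tested. Among these settings and those of the next paragraph, the share of all genes was counted only for diet alone and for the lower calls of DESeq2. For the others the counts cannot show whether the members or all genes moved.

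With 1 library left out, lower members numbered 9 to 23 in B cells, 4 to 15 in CD8 T, 6 to 10 in CD4 T, 0 to 4 in NK, 0 to 11 in monocytes and macrophages, 1 to 6 in neutrophils (0 to 10 higher) and 0 to 2 in DC, and 7 to 22 members passed the test over classes. The log2 ratio of the NK mean, -0.07 on all libraries, was 0.057 in the 4 unfiltered libraries and -0.13 to 0.0081 with 1 library left out. That of the next 40% of NK cells, -0.0021 on all libraries, was 0.026 with 2000 UMIs, 0.032 without thinning, 0.00464 without Ifi27l2a, 0.039 without the 5 members with most UMIs, 0.0011 without doublets, -0.039 to 0.056 with 1 library left out, 0.043 in the unfiltered libraries and 0.068 for ND replicate 3 against MCDHFD replicates 1 and 2. The lower 50% of neutrophils turned to -0.55 without the 5 members with most UMIs. The members' median log2 change stayed under 0 in every class and setting but neutrophils (-0.24 to 0.23). Of the 41 single calls of named members, 39 were lost with diet alone, 41 with the block, 8 with DESeq2, 17 with the batch of 3 levels and 7 to 20 with 1 library left out, and none changed direction. Of the 4 calls of Socs3, 3 were lost with diet alone, 4 with the block and 0 with the batch of 3 levels.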
